A study of Rattus norvegicus with 6 samples.

Results

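The miR-181 family was followed in the peri-infarct cortex of rats after middle cerebral artery occlusion (MCAO) with and without repetitive transcranial magnetic stimulation (rTMS). The members were chosen by name, with earlier results of these data known. All 7 listed mature miRNAs, rno-miR-181a-5p, rno-miR-181b-5p, rno-miR-181c-5p, rno-miR-181d-5p, rno-miR-181a-1-3p, rno-miR-181a-2-3p, and rno-miR-181c-3p, were among the 493 mature miRNAs counted, and no other row carried the miR-181 name. All 7 passed the filter on low counts, and their smallest count in any library was 153. The animals were male Sprague-Dawley rats of 250 to 270 g, whose age was not given. All rats of both groups underwent occlusion of the artery on the right side, which lasted 90 min and was followed by reperfusion. The MCAO group (n = 3) received no stimulation, and its cortex was taken 7 days later; the labels count this time from reperfusion for replicates 1 and 2 and from surgery for replicate 3. The MCAO + rTMS group (n = 3) was stimulated at 10 Hz for 10 min per day on 7 days in a row, and its labels give no day of collection. The paper titles its list of changed miRNAs as from 7 days after modeling, without separating the groups. If the day did differ, its effect cannot be told apart from that of stimulation. Sham-operated rats were not sequenced here, so the values compare stimulated with unstimulated ischemic cortex and do not show the effect of ischemia itself. Each library came from the tissue of 1 rat, and p-values measure the spread between these 6 libraries.

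A miRNA gene is transcribed into a hairpin, and the hairpin is cut into a 5p and a 3p strand. An Argonaute protein usually keeps the 5p strand of miR-181, and the other strand is mostly degraded. Bases 2 to 8 of the kept strand, the seed, pair with target mRNAs and lower their output. In the brain the family is abundant in neurons and astrocytes, and in stroke models it has been linked to GRP78, a chaperone of the endoplasmic reticulum that limits cell death, and to BCL2, a mitochondrial protein that blocks apoptosis. Neither protein was measured in these libraries.

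The family is made from 3 pairs of hairpin genes, and the mature sequences show which reads can be traced to which pair. The sequences are shown from 5′ to 3′ as RefSeq lists them on the rat GRCr8 assembly, with the seed in capitals.
rno-miR-181a-5p: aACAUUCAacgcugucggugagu
rno-miR-181b-5p: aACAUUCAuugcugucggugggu
rno-miR-181c-5p: aACAUUCAaccugucggugagu
rno-miR-181d-5p: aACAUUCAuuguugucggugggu
rno-miR-181a-1-3p: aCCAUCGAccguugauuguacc
rno-miR-181a-2-3p: aCCACCAAccguugacugu
rno-miR-181c-3p: aCCAUCGAccguugaguggacc

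The 4 members on the 5p arm share the seed, and of the 693 mature miRNA names in the RefSeq table no others carried it. Numbering bases from the 5′ end, where the first is 1, and giving the base of the miRNA named first before the position, rno-miR-181b-5p and rno-miR-181d-5p differed only by C12U. rno-miR-181a-5p differed from rno-miR-181b-5p by A9U, C10U, and A21G, and rno-miR-181c-5p was rno-miR-181a-5p without the base at position 11. The division of reads within these close pairs depends on the authors' counting rule, which is not given in the sources used here. The same mature rno-miR-181a-5p is listed for the hairpin genes Mir181a-1 (chr13:52037081-52037103, plus strand) and Mir181a2 (chr3:43025601-43025623, plus strand), so its reads do not tell these genes apart. The 3p strands do. rno-miR-181a-1-3p lies in Mir181a-1 (chr13:52037121-52037142, plus strand), and rno-miR-181a-2-3p lies in Mir181a2 (chr3:43025646-43025664, plus strand). rno-miR-181c-3p shares its seed with rno-miR-181a-1-3p and differs from it by U16G and U19G. The assembly named in the submitters' processing notes is rn6, and the counts carry no coordinates. In the RefSeq gene table Mir181a2 overlaps Nr6a1 and LOC120101539, Mir181a-1 overlaps LOC108352541, and Mir181c overlaps no other gene. Between the hairpins of Mir181c and Mir181d lie 77 bases of chromosome 19, and 986 bases of chromosome 3 lie between those of Mir181a2 and Mir181b2.

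The hairpins of Mir181a2 (chr3:43025563-43025679, plus strand) and Mir181c (chr19:40888291-40888396, plus strand) are shown with both mature strands in capitals. Mir181a2 holds the member with the largest rise, and Mir181c holds the member with the largest fall. These are changes of single strands, and the other strand listed for Mir181a2 was lower.
Mir181a2: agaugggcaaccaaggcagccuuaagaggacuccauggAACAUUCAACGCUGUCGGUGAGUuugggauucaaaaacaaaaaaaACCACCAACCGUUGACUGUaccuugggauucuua
Mir181c: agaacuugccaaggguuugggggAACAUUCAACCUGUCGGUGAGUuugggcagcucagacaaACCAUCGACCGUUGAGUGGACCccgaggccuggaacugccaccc

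The libraries held between 10492610 and 15411620 counts. Levels are CPM, the count relative to the library total after scaling with edgeR's TMM factors. The 452 miRNAs left by edgeR's filter on low counts were tested by its quasi-likelihood method, and p-values were adjusted over all of them (Benjamini-Hochberg). The scaling matters for every level, since the TMM factors lay between 1.16 and 1.39 for MCAO rats and between 0.695 and 0.864 for stimulated rats. At an adjusted p under 0.05, stimulated rats had 123 miRNAs higher and 127 lower, against 55 and 208 with library totals only and 85 and 172 with upper-quartile factors. The median log2 fold change of all tested miRNAs was -0.21 with TMM factors, -0.50 with upper-quartile factors, and -0.80 with library totals only. Fold changes of members are therefore also given relative to that median.

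Of the 7 members, 1 was higher (rno-miR-181a-2-3p), 2 were lower (rno-miR-181a-5p and rno-miR-181c-5p), and 4 did not pass the threshold of the edgeR test. Over all 452 miRNAs, 55.3% passed it, with 27.2% higher and 28.1% lower. The groups did not overlap in 3 members, while they did not overlap in 66.8% of all tested miRNAs. The median log2 fold change of the members was -0.28, beside -0.21 for all tested miRNAs. With 7 members, a change of 1 call moves such a share widely, and nothing is read from the difference. The count also varied. It was 4 members lower with upper-quartile factors or library totals only, and without any 1 library other than MCAO + rTMS replicate 3 only 1 was lower, rno-miR-181c-5p.

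**Figure D1:**
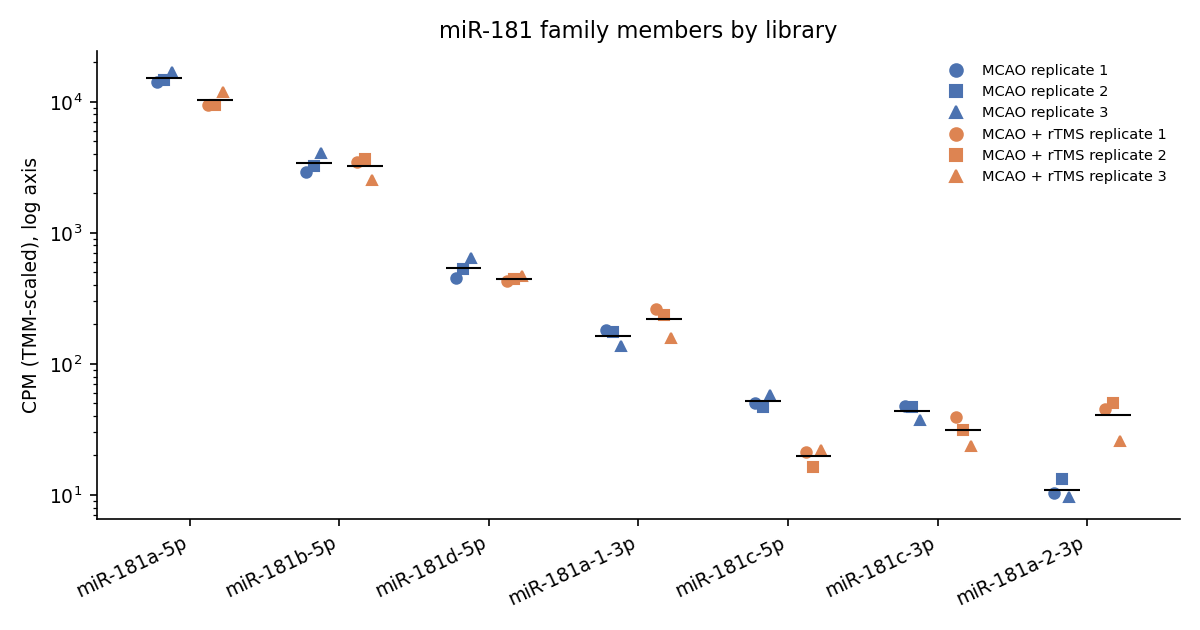
CPM of each miR-181 member on a log axis, with a point for each library (marker shape gives the replicate number, by which no pairing was evident) and a bar at the group mean of 3. The 4 most abundant members are in the same order in all libraries, and the MCAO and MCAO + rTMS points separate for miR-181a-5p, miR-181c-5p, and miR-181a-2-3p.

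The guide strands were described first. rno-miR-181a-5p, the dominant member, ranked 15 by mean count among the 493 miRNAs. It was at 14088, 14648, and 16868 CPM in MCAO replicates 1, 2, and 3 and at 9446, 9411, and 11875 CPM in MCAO + rTMS replicates 1, 2, and 3. All stimulated rats were below all unstimulated rats. The group means were 15202 ± 1470 CPM and 10244 ± 1413 CPM (SD, n = 3 each), a 1.48-fold lower level (log2 fold change -0.57, standard error 0.17, adjusted p = 0.0267 in edgeR's quasi-likelihood test). Against the median of all tested miRNAs this was -0.36. The call was lost without MCAO replicate 1, 2, or 3 and without MCAO + rTMS replicate 1 or 2, with an adjusted p from 0.0547 to 0.103 in the same edgeR test. It was kept, at an adjusted p of 0.0098, without MCAO + rTMS replicate 3.

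rno-miR-181b-5p, which shares a transcript with miR-181a in each a/b pair, was the next in abundance. Its levels were 2929, 3235, and 4063 CPM in the MCAO libraries and 3448, 3630, and 2549 CPM in the MCAO + rTMS libraries. The groups overlapped throughout, and the MCAO + rTMS group held the lowest value of all 6. Its log2 fold change came to -0.087 (standard error 0.21, adjusted p = 0.752 in the edgeR test), and against the median of all tested miRNAs its sign turned, to 0.12.

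In the c/d pair, rno-miR-181d-5p was the abundant member, with 453, 529, and 647 CPM in the MCAO libraries and 431, 442, and 466 CPM in the MCAO + rTMS libraries. MCAO replicate 1 lay within the narrow range of the stimulated rats, and the log2 fold change came to -0.28 (standard error 0.19, adjusted p = 0.244 in the edgeR test), or -0.075 against the median of all tested miRNAs. It passed the threshold with upper-quartile factors, at -0.58 (adjusted p = 0.0441), and with unscaled totals, at -0.93 (adjusted p = 0.012). Its partner rno-miR-181c-5p was at 50.2, 46.6, and 58.3 CPM in MCAO replicates 1, 2, and 3, and at 21.2, 16.4, and 22.2 CPM in MCAO + rTMS replicates 1, 2, and 3. Every MCAO value was more than 2 times every MCAO + rTMS value. The level was 2.60-fold lower in the MCAO + rTMS group (log2 fold change -1.38, standard error 0.20, adjusted p = 0.00156 in the edgeR test), or -1.17 against the median of all tested miRNAs. With any 1 library left out the log2 fold change stayed between -1.45 and -1.21.

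The 4 members with the shared seed summed to 17520, 18458, and 21637 CPM in the MCAO libraries and to 13347, 13499, and 14913 CPM in the MCAO + rTMS libraries. rno-miR-181a-5p made up most of both sums, so the sum follows that member, and rno-miR-181c-5p had almost no weight in it. In terms of unscaled counts, the 7 members together took 2.44% ± 0.518 of the reads of MCAO libraries and 1.14% ± 0.0790 of those of MCAO + rTMS libraries (SD, n = 3 for each). MCAO replicate 3 had the highest share, 3.04%.

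The 3p strands followed, of which 1 passed the test. rno-miR-181a-2-3p, the only read of the family specific to Mir181a2 in the table, was at 10.3, 13.1, and 9.58 CPM in the MCAO libraries and at 45.3, 50.7, and 25.7 CPM in the MCAO + rTMS libraries. The groups did not overlap, although MCAO + rTMS replicate 3 stood well below the other stimulated rats. It was 3.70-fold higher in the MCAO + rTMS group (log2 fold change 1.89, standard error 0.29, adjusted p = 0.00198 in the edgeR test), or 2.09 against the median of all tested miRNAs. Its raw counts were 161, 159, and 153 in the MCAO libraries and 602, 601, and 264 in the MCAO + rTMS libraries, so the difference was also present before any scaling. Without MCAO + rTMS replicate 3 the log2 fold change was 2.15, the highest value with 1 library left out.

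rno-miR-181a-1-3p, the passenger of the other a/b gene pair, was at 180.6, 176, and 136 CPM in the MCAO libraries and at 261, 238, and 157 CPM in the MCAO + rTMS libraries. MCAO + rTMS replicate 3 lay among the MCAO rats. Its log2 fold change came to 0.41 (standard error 0.24, adjusted p = 0.179 in the edgeR test). The direction depended on the scaling, with a log2 fold change of -0.18 with library totals only, while the value set against the median of all tested miRNAs came to 0.62 under TMM and 0.63 under totals alone. Without MCAO + rTMS replicate 3 it passed the threshold, at a log2 fold change of 0.63 and an adjusted p of 0.0201 in the same edgeR test.

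rno-miR-181c-3p was at 47.2, 47.2, and 37.5 CPM in the MCAO libraries and at 39.3, 31.2, and 23.4 CPM in the MCAO + rTMS libraries, with MCAO + rTMS replicate 1 above MCAO replicate 3. Its log2 fold change came to -0.49 (standard error 0.23, adjusted p = 0.111 in the edgeR test), or -0.28 against the median of all tested miRNAs. With library totals only it was -1.08 and passed the threshold at an adjusted p of 0.0125, and with upper-quartile factors it was -0.78 at an adjusted p of 0.0184.

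**Figure D2:**
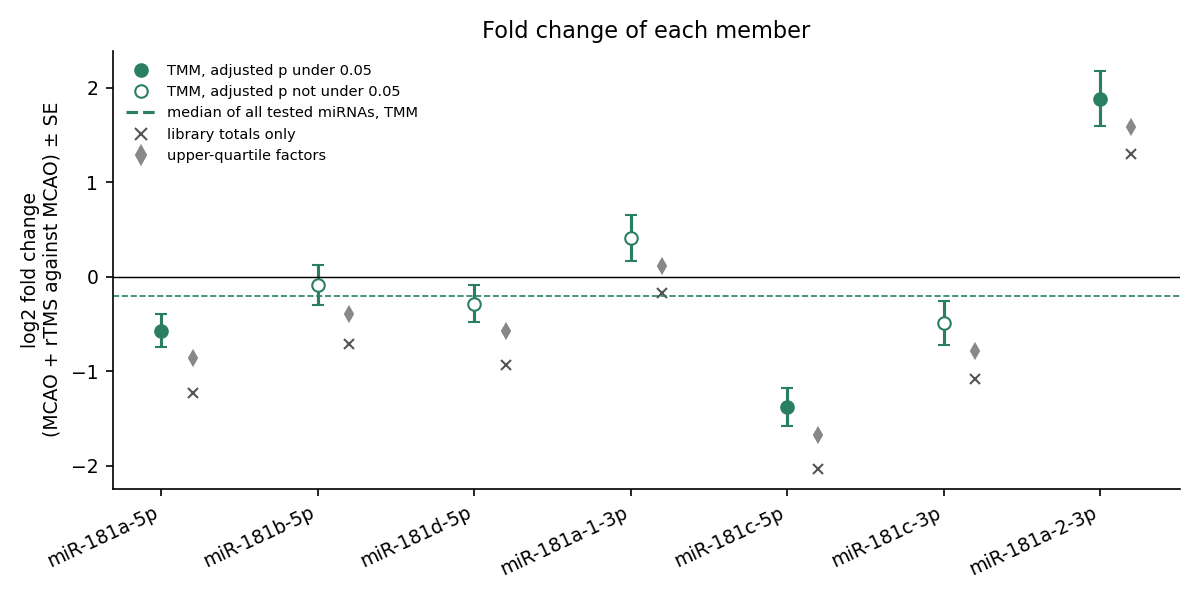
Log2 fold change of each member between the MCAO + rTMS and MCAO groups (3 libraries each) with its standard error, from edgeR with TMM factors; filled circles passed an adjusted p under 0.05, and crosses and diamonds give the value with library totals only and upper-quartile factors. miR-181a-2-3p stayed above 0 and miR-181c-5p below -1 under all 3 scalings, while miR-181a-1-3p fell on both sides of 0.

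Ratios of counts within a library do not depend on the scaling of library totals, so the arms of a hairpin were compared in this way. For all 161 hairpins with both arms tested, the log2 ratio of the 3p to the 5p count was fitted with limma, with Benjamini-Hochberg adjustment over the 161. The ratio changed with an adjusted p under 0.05 in 48.4% of the hairpins, and in 21.7% it was higher in the MCAO + rTMS group. Of the 3 ratios of the miR-181 family, 1 passed. Reads of rno-miR-181a-2-3p were 0.0728%, 0.0896%, and 0.0568% of those of rno-miR-181a-5p in the MCAO libraries and 0.479%, 0.538%, and 0.216% in the MCAO + rTMS libraries. The log2 ratio rose by 2.41 (standard error 0.42, adjusted p = 0.0059 in limma), and by 2.16 to 2.82 with any 1 library left out. Among the 161 hairpins 36 had a change larger in size.

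rno-miR-181a-1-3p was at 1.28%, 1.20%, and 0.809% of rno-miR-181a-5p in the MCAO libraries and at 2.76%, 2.53%, and 1.32% in the MCAO + rTMS libraries. The groups did not overlap, with MCAO + rTMS replicate 3 just above the highest MCAO library, and the difference of the log2 ratios was 0.96 (standard error 0.38, adjusted p = 0.0852 in limma). Both ratios have the same 5p strand below the line, and that strand comes from both genes, so these are not independent arm ratios of single hairpins. For miR-181c the strands come from a single hairpin. Here rno-miR-181c-3p was at 94.0%, 101%, and 64.2% of rno-miR-181c-5p in the MCAO libraries and at 185%, 191%, and 106% in the MCAO + rTMS libraries. The 3p strand thus had more reads than the 5p strand in all 3 stimulated rats and in 1 of the unstimulated rats. The difference of the log2 ratios, 0.87 (standard error 0.34, adjusted p = 0.0862 in limma), did not pass the threshold over all hairpins. Without MCAO + rTMS replicate 3, the miR-181a-1 and miR-181c ratios both passed it, at 1.30 (adjusted p = 0.0172) and 1.15 (adjusted p = 0.0224) in limma. With any other library left out neither passed. The adjusted p in limma was then 0.123 to 0.229 for miR-181a-1 and 0.126 to 0.239 for miR-181c. MCAO + rTMS replicate 3 also had the lowest TMM factor, 0.695, so its deviation was not particular to this family.

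**Figure D3:**
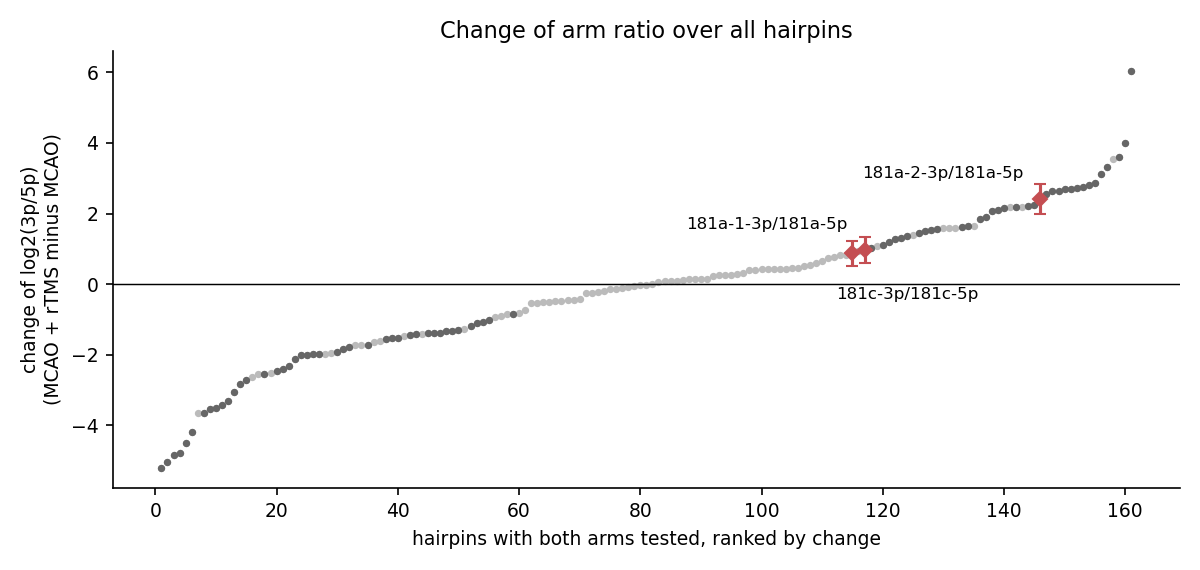
Change of log2(3p/5p) between the MCAO + rTMS and MCAO groups for the 161 hairpins with both arms tested, ranked from lowest to highest; dark points had an adjusted p under 0.05 in limma, light points did not, and diamonds with standard errors are the miR-181 ratios. The ratio of miR-181a-2-3p to miR-181a-5p ranked 16 from the top, and the other miR-181 ratios lay in the part of the ranking where calls begin.

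The members were then compared with each other in 6 within-library ratios. An exact permutation test of 3 rats against 3, two-sided, cannot go below p = 0.1, so no ratio could pass 0.05, and the sizes are given with the spread. For the passengers of the a/b gene pairs, rno-miR-181a-2-3p was at 5.68%, 7.46%, and 7.02% of rno-miR-181a-1-3p in the MCAO libraries and at 17.4%, 21.3%, and 16.3% in the MCAO + rTMS libraries. This was a 2.72-fold difference (log2 difference 1.45, standard error 0.17, exact permutation p = 0.1, adjusted p = 0.12 over the 6 ratios). MCAO + rTMS replicate 3, which was the lowest of its group for each of these strands, was close to its group in their ratio.

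For the c/d partners, whose hairpins lie 77 bases apart, rno-miR-181c-5p was at 11.1%, 8.82%, and 9.01% of rno-miR-181d-5p in the MCAO libraries and at 4.92%, 3.70%, and 4.75% in the MCAO + rTMS libraries (log2 difference -1.11, standard error 0.17, exact permutation p = 0.1, adjusted p = 0.12). rno-miR-181c-5p was also lower relative to rno-miR-181a-5p, from which it differs by 1 missing base, at 0.357%, 0.318%, and 0.346% in the MCAO libraries and 0.225%, 0.174%, and 0.187% in the MCAO + rTMS libraries (log2 difference -0.81, standard error 0.12, exact permutation p = 0.1, adjusted p = 0.12). The ratio of rno-miR-181d-5p to rno-miR-181a-5p, at 3.22% to 3.84% without and 3.93% to 4.70% with stimulation, differed by 0.31 on the log2 scale (standard error 0.11) with the same p-values. The ratio of the c/d pair to the a/b pair on the 5p arm, sums in which rno-miR-181d-5p and rno-miR-181a-5p had the most reads, differed by 0.13 on the log2 scale (standard error 0.058, exact permutation p = 0.1, adjusted p = 0.12).

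For rno-miR-181b-5p relative to rno-miR-181a-5p, MCAO + rTMS replicates 1 and 2 were at 36.5% and 38.6%, above the MCAO range of 20.8% to 24.1%, while MCAO + rTMS replicate 3 was at 21.5%, inside that range. The log2 difference was 0.48 (standard error 0.28, exact permutation p = 0.3, adjusted p = 0.3), and 0.75 without MCAO + rTMS replicate 3.

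**Figure D4:**
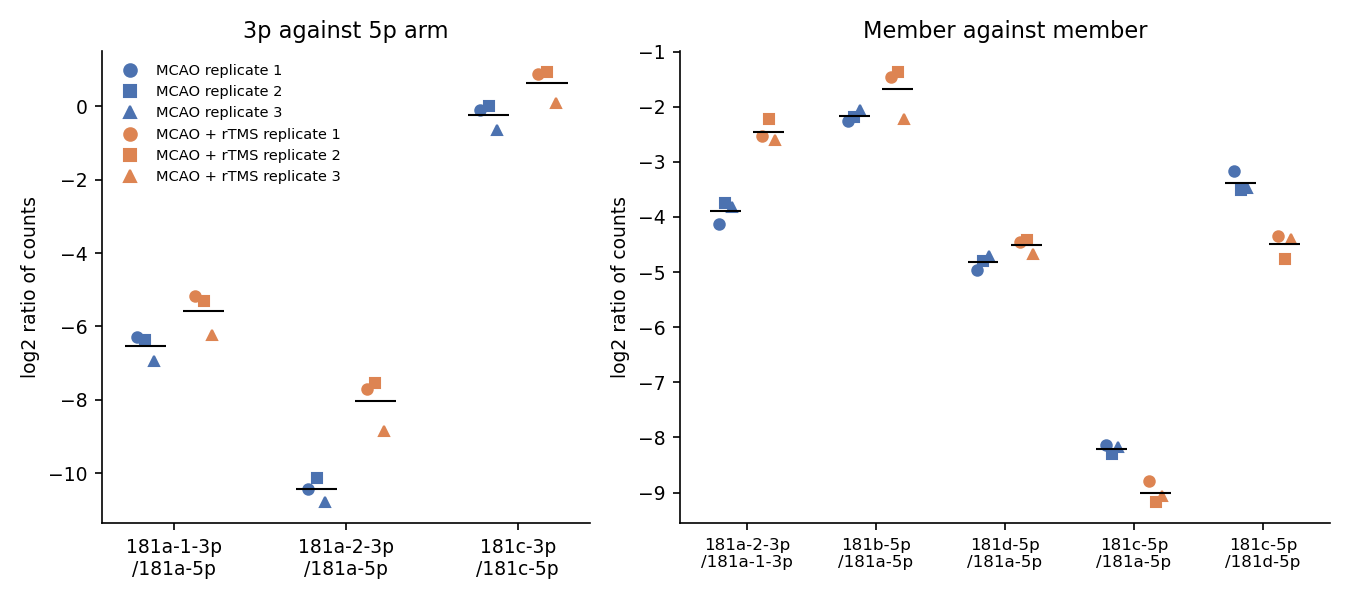
Log2 ratios of counts within each library, with a bar at each group mean of 3: on the left the 3p against the 5p arm, on the right member against member. The groups separate in all ratios shown except miR-181b-5p to miR-181a-5p, where MCAO + rTMS replicate 3 lies among the MCAO libraries. The gap is narrow for miR-181a-1-3p to miR-181a-5p, miR-181c-3p to miR-181c-5p, and miR-181d-5p to miR-181a-5p. How many of all 161 arm ratios separate in this way was not counted, so nothing is read from the separation.

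The order of the members by count was miR-181a-5p, miR-181b-5p, miR-181d-5p, and miR-181a-1-3p in all 6 libraries. Mature members are 19 to 23 bases long and each read stands for 1 strand, so counts were compared without a length correction, although ligation of adapters can differ between sequences. Below these 4, the order differed between the groups. In the MCAO libraries rno-miR-181a-2-3p was last, and rno-miR-181c-5p had 4.90, 3.55, and 6.08 times as many reads. In the MCAO + rTMS libraries rno-miR-181a-2-3p had more reads than rno-miR-181c-5p, by 2.13, 3.10, and 1.16 times, the last from 264 against 228 counts. rno-miR-181c-5p and rno-miR-181c-3p were not separated in the MCAO libraries, where either could be the higher.

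Other miRNAs known to act on BCL2 or GRP78 were listed beside the family, and 4 of 7 were lower and none higher in the MCAO + rTMS group at an adjusted p under 0.05 in the edgeR test, beside 28.1% lower and 27.2% higher over all tested miRNAs. The list was chosen with earlier results of these data known. Lower were the BCL2-directed miR-15b-5p (log2 fold change -1.03), miR-16-5p (-1.55), miR-195-5p (-1.60), and miR-497-5p (-1.96), which share a seed family. miR-34a-5p, a p53-induced miRNA that also acts on BCL2, was at -0.59 (adjusted p = 0.114), and the GRP78-directed miR-30d-5p and miR-199a-5p were at -0.054 and -0.0035 and did not pass. The median of the list was -1.03, beside -0.21 for all tested miRNAs.

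The miR-23a, miR-27a, and miR-24-2 genes are the next miRNA genes after Mir181d beside Mir181c in the RefSeq table. Of their 5 tested strands, 2 were lower, miR-24-3p (log2 fold change -0.83) and miR-24-2-5p (-1.18), and 1 was higher, miR-27a-5p (1.07), while miR-23a-3p (-0.84, adjusted p = 0.0581) and miR-27a-3p (-0.31, adjusted p = 0.387) did not pass the edgeR test. Over all tested miRNAs 55.3% passed it. Unlike miR-24-2-5p, the name miR-24-3p carries no gene number, so its reads cannot be assigned to the miR-24-2 gene alone. The balance of the arms also differed at miR-27a, in the opposite direction to the miR-181 ratios. The log2 ratio of its 3p strand, the guide, to its 5p strand fell by 1.34 (adjusted p = 0.00874 in limma). This change ranked 87 in size among the 161 hairpins, of which 48.4% passed the same test.

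miRNAs typical of single cell types were set beside the 28.1% lower and 27.2% higher of all tested miRNAs. Of the 6 immune cell miRNAs, 5 were lower in the MCAO + rTMS group at an adjusted p under 0.05 in the edgeR test (miR-142-3p, miR-142-5p, miR-150-5p, miR-155-5p, and miR-223-3p), and miR-146a-5p was at -0.58 without passing. Their summed level was 1134 to 1252 CPM in the MCAO libraries and 605 to 813 CPM in the MCAO + rTMS libraries, mostly from miR-146a-5p and miR-150-5p. The levels of miR-142-3p, miR-142-5p, and miR-223-3p were low, with means of 1.77, 3.22, and 3.42 CPM in the MCAO + rTMS group. For miR-142-5p the groups overlapped. Endothelial miR-126a-5p was lower (log2 fold change -1.22), and miR-126a-3p was at -0.84 without passing, with a sum of 2993 to 6298 CPM without and 2017 to 3293 CPM with stimulation. The 3 neuron miRNAs gave 1 higher (miR-128-3p, 0.69), 1 lower (miR-138-5p, -1.65), and miR-124-3p at -0.49 without passing, and together they were at 177373 to 240946 CPM and 287363 to 458647 CPM, nearly all from miR-128-3p. Of the 2 oligodendrocyte strands tested, miR-219a-2-3p was higher (1.22) and miR-338-3p was at -0.73 without passing, with sums of 571 to 786 CPM and 963 to 2106 CPM. Of the 2 red blood cell miRNAs tested, miR-451-5p was lower (-1.61) and miR-486 higher (1.72), with sums of 141 to 302 CPM and 513 to 637 CPM. miR-181 is found in lymphocytes as well as in brain cells, and the part of any cell type in the lower miR-181a-5p and miR-181c-5p or the higher miR-181a-2-3p was not tested. In bulk cortex, fewer cells of a type and less of a miRNA per cell cannot be told apart.

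Across the 6 libraries, the levels closest to rno-miR-181c-5p by Pearson's r of log2(CPM + 1) were let-7i-3p (r = 0.988), miR-143-5p (0.988), and miR-3065-5p (0.982). Closest to rno-miR-181a-2-3p were miR-1843a-3p (0.992), miR-1-3p (0.985), and miR-130b-5p (0.979), and closest to rno-miR-181a-5p were miR-540-3p (0.993), miR-935 (0.969), and miR-539-3p (0.959). The points share the same 6 libraries and the same 2 groups, and each list was the top of all 452 tested, so these values are a description. No other member of the family was among the closest for any of the 3.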

How the data were processed

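Small RNA libraries (NEBNext kit, Illumina HiSeq) were counted and deposited by the authors as raw read counts per mature miRNA, not normalized, for 3 MCAO and 3 MCAO-rTMS rats. The submitters' processing notes name bcl2fastq, BWA, DESeq2, and the rn6 build. The miRNA database and how reads matching more than 1 miRNA were counted are not given in the sources used here. No count from 1 to 9 occurs, and 286 of 2958 counts are 0, none of them in the miR-181 family. A table with the counts of 73 selected miRNAs was read only to look for members, and it held 0 of them. The study's selection thus left out miR-181a-2-3p and miR-181c-5p, which were 3.70-fold higher and 2.60-fold lower here. The reason for this difference was not tested. Groups came from the sample titles. The members and lists were chosen with earlier results of these data known. Members, the listed miRNAs, and the closest 3 miRNAs of 3 members are named; the comparison of miR-181a-2-3p with miR-181c-5p was chosen after its values were seen.

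Counts were fitted in R 4.3.3 with edgeR 4.0.16 (filterByExpr, TMM factors, quasi-likelihood test, no block, Benjamini-Hochberg adjustment). The study's methods name two-sample tests, which were replaced by a count model. Standard errors are the size of the log2 fold change divided by the square root of F. Arm ratios, log2 of 3p over 5p counts after adding 0.5, were fitted with limma 3.58.1. Ratios between members were tested with exact permutation tests in scipy 1.17.1. The fits were tested on simulated counts in which as many miRNAs were raised as lowered. That test was not set up to judge the choice of scaling. Alternatives were other scalings, filters, pseudocounts, DESeq2 1.42.0, limma-voom, each 0 set to 9, a replicate block, and each library left out. Sequences and gene neighbours came from RefSeq (GRCr8), in which all 7 members and 414 of the 452 tested miRNAs had a mature sequence. No 2 libraries of a group agreed within sampling noise. MCAO + rTMS replicate 3 differed most from its group over all miRNAs. Its chi-square per degree of freedom was 1999 against replicate 1 and 1563.5 against replicate 2, beside 325 between those. Molecular identifiers were not used, so reads cannot be equated with molecules. miR-144-3p and miR-23a-5p of the lists were not in the table used here, and miR-219a-5p did not pass the filter.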

Additional observations from a re-analysis of the deposited data

How the results depend on the processing

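miR-181a-2-3p stayed higher and miR-181c-5p lower at an adjusted p under 0.05 in all 16 alternative fits of the counts, from 1.30 to 2.15 and from -2.03 to -1.21 on the log2 scale, and the ratio of miR-181a-2-3p to miR-181a-5p was higher in all 10 alternative arm fits. The number of members lower, 2, was 4 with upper-quartile factors or library totals only, 3 with mean counts above 200, and 1 with each 0 set to 9. After leaving out any 1 library it was 1 to 2, and the number higher, 1, was then 1 to 2. The log2 fold change of miR-181c-3p passed the threshold at -1.08 (library totals only), -0.78 (upper-quartile factors), and -0.61 (mean count above 200), and that of miR-181d-5p at -0.93 and -0.58 with the first 2 of these. miR-181a-5p lost it at -0.47 with each 0 set to 9, and lay between -0.67 and -0.46 after leaving out 1 library. The sign reversed, without a call, for miR-181a-1-3p at -0.18 with library totals only and for miR-181b-5p at 0.011 with each 0 set to 9. With 1 library left out, miR-181a-1-3p was at 0.27 to 0.63, with a call only without MCAO + rTMS replicate 3, and miR-181b-5p at -0.18 to 0.089. The arm ratio of miR-181a-1 passed at 0.96 with a pseudocount of 10, with mean counts above 100, and with the replicate block, and lay between 0.76 and 1.30 after leaving out 1 library; that of miR-181c passed at 0.87 with mean counts above 100 and lay between 0.67 and 1.15. The changes under library totals and upper-quartile factors go with the shift of the median of all miRNAs; the cause of the others was not tested.

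The replicate numbers of the labels mark different rats. Deviations of same-numbered libraries correlated at 0.198, -0.119, and -0.114, and those of differently numbered libraries at -0.279 to 0.297. No pairing by number was evident, and 3 libraries per group cannot decide the question. With the replicate block 180 miRNAs passed, against 250, and the same number of members was higher (1) and lower (2).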
